A study of Mus musculus with 4 samples.

Results

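Fgf5, Pou3f1, Otx2, Wnt3, Tbxt (brachyury, called T in older annotation), Eomes, Mixl1 and Mesp1 are regulators of the mouse epiblast and primitive streak and were followed here through 4 two-colour arrays. They were found through the RefSeq accession of every probe other than controls, which gave 8 genes with 10 probes, among 17016 genes with a symbol on the array. Wnt3 and Mesp1 had 2 probes each. The Otx2 and Tbxt probes were each printed on 10 spots. Of the 8 genes, 7 were bright enough to be tested, and Mixl1 was not. The Tbxt probe qualified through siNTE and control cells at 96 h, the brighter Wnt3 probe through these and control cells at 24 h, and Mesp1 through siNTE cells at 96 h and control cells at 24 h.

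The RNA came from D3 cells, a mouse embryonic stem cell line, plated as embryoid bodies (aggregates in which such cells differentiate) in medium with 15% serum and without LIF, the cytokine that holds them undifferentiated. The siNTE cells at 24 h and at 96 h had been transfected with siRNA against Pnpla6 (1.25 pmol of each siRNA), the gene of neuropathy target esterase (NTE), which breaks down phosphatidylcholine. The control cells at 24 h and at 96 h are D3 cells grown alike, and the labels do not say what they received in place of that siRNA. Each time had 2 arrays with siNTE and control RNA side by side: replicate 1 had control RNA in Cy5 and siNTE RNA in Cy3, and replicate 2 the reverse. Whether both arrays of a time hold separate cultures is not stated in the labels, so the spread between arrays behind the p-values may be technical. For the ratios of siNTE to control that spread is mostly a value shared over all genes (1 residual against 36.1 prior degrees of freedom). A term for the dye also takes up a gap between replicates that is alike at both times. The p-values thus hardly reflect how far the 2 arrays differ for a single gene. All cells are of 1 line.

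Between implantation and gastrulation the epiblast passes from naive pluripotency through a formative stage to a primed one, and its posterior side then forms the primitive streak, from which mesoderm and definitive endoderm arise. Fgf5, Pou3f1 and Otx2 mark the formative and primed epiblast. Wnt3 is the signal that starts the streak, and Tbxt, Eomes, Mixl1 and Mesp1 are transcription factors that streak and early mesoderm cells express in answer to Wnt and Nodal signals. Embryoid bodies without LIF pass through related stages.

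RefSeq promoter windows were at hand for 6 of the 8 genes (Fgf5, Otx2, Wnt3, Tbxt, Eomes and Mesp1). The 250 bases before the start are printed for 4 of them: Fgf5 and Wnt3, because they are the genes with a window whose signal differed between siNTE and control cells at 96 h, and Tbxt and Mesp1, because their windows hold the core recognised by TCF/LEF factors, through which Wnt signals act. Capitals mark matches, on either strand, to 1 of the 4 motifs searched. These were CTTTGA (TCF/LEF core), TCACAC (T-box half-site), TAATCC (core bound by Otx2 and related factors) and ATGCAAAT (the octamer bound by POU factors). Coordinates are of GRCm38.p6.
Fgf5, chr5:98253934-98254183, plus strand: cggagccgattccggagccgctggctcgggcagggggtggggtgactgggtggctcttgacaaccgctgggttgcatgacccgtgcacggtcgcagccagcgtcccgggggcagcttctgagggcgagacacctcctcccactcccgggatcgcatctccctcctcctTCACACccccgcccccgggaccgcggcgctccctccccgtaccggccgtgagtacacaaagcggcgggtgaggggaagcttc
Wnt3, chr11:103773925-103774174, plus strand: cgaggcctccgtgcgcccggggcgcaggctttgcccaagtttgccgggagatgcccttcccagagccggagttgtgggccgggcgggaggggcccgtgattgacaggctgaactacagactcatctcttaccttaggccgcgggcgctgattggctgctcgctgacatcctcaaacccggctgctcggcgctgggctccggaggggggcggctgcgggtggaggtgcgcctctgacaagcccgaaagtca
Tbxt, chr17:8434173-8434422, plus strand: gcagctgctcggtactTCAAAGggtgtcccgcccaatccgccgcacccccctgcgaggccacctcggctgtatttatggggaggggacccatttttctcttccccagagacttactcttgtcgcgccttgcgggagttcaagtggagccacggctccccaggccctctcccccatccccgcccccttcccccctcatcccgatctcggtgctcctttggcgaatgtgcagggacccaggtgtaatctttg
Mesp1, chr7:79793591-79793840, minus strand: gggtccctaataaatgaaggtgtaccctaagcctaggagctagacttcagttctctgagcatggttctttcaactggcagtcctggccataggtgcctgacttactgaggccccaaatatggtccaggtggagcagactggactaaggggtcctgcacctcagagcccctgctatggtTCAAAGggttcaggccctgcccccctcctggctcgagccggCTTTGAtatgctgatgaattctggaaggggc

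The TCF/LEF core stood once in the Tbxt window and 2 times in the Mesp1 window, and 13.8% of all 32851 RefSeq windows of that length hold it. The T-box half-site stood once in the Fgf5 window (12.3% of all windows). Otx2 has 4 windows, and 1 of them holds the Otx core (6.25% of all windows). The octamer (1.6% of all windows) was in none of the members' windows, and the Wnt3 and Eomes windows hold none of the 4 motifs. The motifs share no bases with each other in these windows. A match describes the letters only, and the arrays did not measure binding.

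In each channel 62.5% to 68.7% of the 43379 spots that were not controls were well above background, the scanner software's own call, and no spot was saturated. The number of arrays limits the precision. All 10 naive and all 6 general pluripotency markers of the lists used, with Nanog and Pou5f1 among them, were well above background in both channels of every group. Pnpla6 stood at 54.9% of the control level in siNTE cells at 24 h (log2 ratio −0.87, limma adjusted p = 6.46e-12) and at 101% at 96 h (0.01, limma adjusted p = 0.96). With a background offset of 16 in place of 50, with the log ratios the authors deposited, without a term for the dye, with the slide as a block in its place or without any 1 array, limma called 0 genes at 24 h, so Pnpla6 was not called there either (190 to 1617 genes had an unadjusted p under 0.05). In bulk RNA, fewer cells that express a gene and less of its RNA per cell cannot be told apart.

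Signals below are the authors' processed signals, the spot intensity in arbitrary units after their background subtraction and dye normalization. Log2 ratios are siNTE over control after a separate background correction that adds 50 to every signal, which by construction pulls the ratios of dim spots toward 0. Levels are compared for the same probe only.

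**Figure D1:**
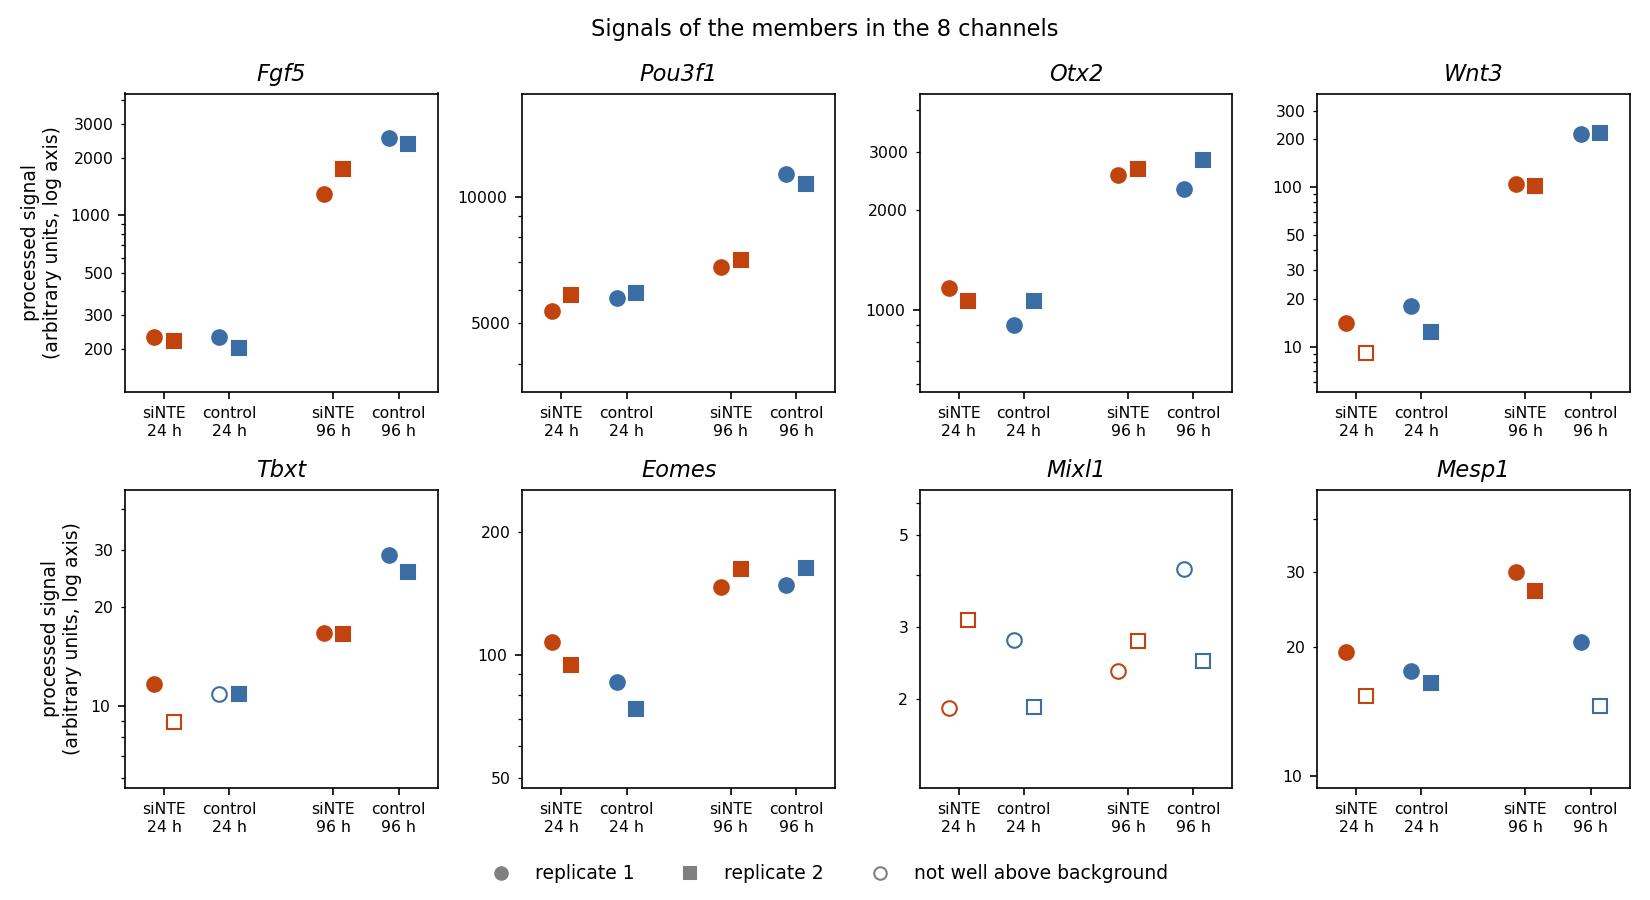
Processed signal (arbitrary units, log axis, a separate range for each gene) of the 8 genes in the 8 channels, by RNA group; for Wnt3 and Mesp1 the brighter probe. Circles are replicate 1, squares replicate 2, and open symbols were not well above background. At 96 h the siNTE signals of Fgf5, Pou3f1, Wnt3 and Tbxt lie below both control signals, and those of Mesp1 lie above both. Tbxt and Mesp1 did not pass the test at 96 h. All Mixl1 symbols are open.

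The first question was whether the formative epiblast genes differed between siNTE and control cells. None passed the test at 24 h, and at 96 h Fgf5 and Pou3f1 were lower in siNTE cells while Otx2 was not called. Across all 7 genes tested, none passed at 24 h (0.395% of all genes did, and 2 of the 7 had an unadjusted p under 0.05 in limma, Otx2 and Eomes). At 96 h 3 of the 7 fell and none rose. For all genes the share called at 96 h was 13.5%, and the share that fell was 6.86%. The median log2 ratio of the 7 genes at 96 h was −0.14, against 0.00 over all genes.

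Fgf5 encodes a fibroblast growth factor that is a standard marker of the epiblast after implantation. Its signal was 1289 and 1739 in siNTE cells at 96 h, against 2551 and 2365 in control cells at 96 h. The 24 h signals were 230 and 220 in siNTE cells, against 232 and 203 in control cells. The siNTE and control signals overlapped at 24 h and did not at 96 h, where the lower of the control signals was above both siNTE signals.

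The log2 ratio of Fgf5 at 96 h was −0.69 (SE 0.07, n = 2 arrays, limma adjusted p = 5.97e-10), which is 62.2% of the control level or 1.61-fold lower. The 24 h ratio was 0.05 (SE 0.07, limma adjusted p = 0.971). Replicate 1 gave −0.95 and replicate 2 −0.42 at 96 h, the widest gap among the 7 genes tested. The call was lost when the dye term, and with it the block on the replicate number, was dropped (limma adjusted p = 0.106), and without 96 h replicate 1 (−0.42, limma adjusted p = 0.472). It was also lost without either 24 h array, where no dye term could be kept (limma adjusted p = 0.111 each).

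Pou3f1 (Oct6) is a POU transcription factor of the formative epiblast and of neural progenitors. In siNTE cells at 96 h it gave 6804.5 and 7058, against 11287 and 10684.5 in control cells at 96 h. Its 24 h signals were 5352 and 5837 in siNTE cells, against 5748 and 5909 in control cells. The groups overlapped across arrays at 24 h, though siNTE was the lower within each array. At 96 h both siNTE signals were below both control signals.

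At 96 h the log2 ratio of Pou3f1 was −0.63 (SE 0.06, n = 2 arrays, limma adjusted p = 7.3e-10), or 64.6% of the control level. Replicate 1 gave −0.66 and replicate 2 −0.60. The ratio was −0.08 at 24 h (SE 0.06, limma adjusted p = 0.884). The 96 h call was lost without either 96 h array, at −0.60 (limma adjusted p = 0.196) without replicate 1 and −0.66 (limma adjusted p = 0.147) without replicate 2. With the authors' own log ratios neither Pou3f1 (−0.66, limma adjusted p = 0.17) nor Fgf5 (−0.71, limma adjusted p = 0.181) passed, and none of the 21752 genes did (3847 had an unadjusted p under 0.05 in limma).

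Otx2 is a homeobox factor that takes part in the exit from naive pluripotency and is also present in visceral endoderm. The medians of its 10 spots were 2550 and 2660 in siNTE cells at 96 h, against 2324 and 2832 in control cells. At 24 h they were 1165 and 1065 in siNTE cells, against 901 and 1068 in control cells. The 10 spots of a channel varied by 5.46% to 8.36% (coefficient of variation), and at both times the siNTE and control signals overlapped.

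The log2 ratio of Otx2 was −0.01 at 96 h (SE 0.06, limma adjusted p = 0.952). Replicate 1 gave 0.11 and replicate 2 −0.13. At 24 h it was 0.17 (SE 0.06, limma adjusted p = 0.34), with 0.33 and 0.02, so that nearly all of it lay on replicate 1. The 96 h ratio changed sign under 4 of the 11 other settings tried, among them centring the ratios on their median (0.042).

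**Figure D2:**
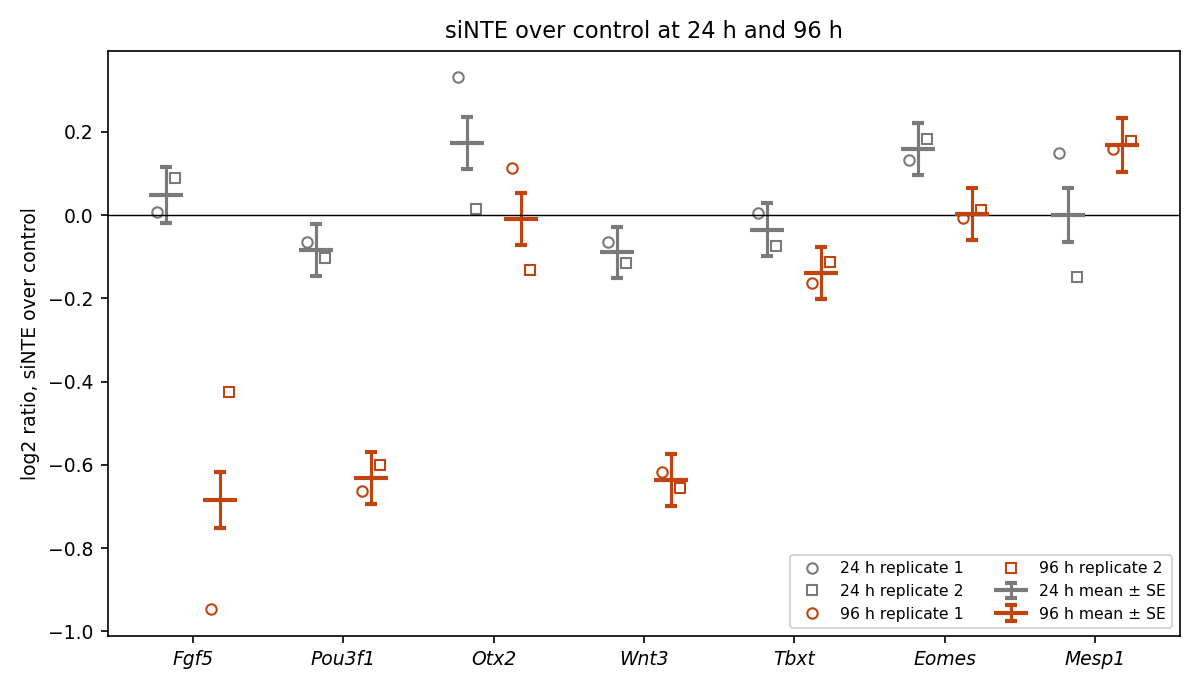
Log2 ratio of siNTE over control for the 7 genes tested, at 24 h (grey) and 96 h (orange); bars are the fitted mean ± SE, circles replicate 1 and squares replicate 2. At 96 h Fgf5, Pou3f1 and Wnt3 lie between −0.69 and −0.63, and the other 4 genes lie between −0.14 and 0.17.

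Of the streak genes, the ligand Wnt3 was lower in siNTE cells at 96 h, and none of the transcription factors passed the test. Wnt3 was read by 2 probes. The brighter gave 105 and 102 in siNTE cells at 96 h, against 213 and 219 in control cells at 96 h. Its 24 h signals were 14.1 and 9.17 in siNTE cells, against 17.9 and 12.3 in control cells, and 1 of the siNTE channels was not well above background. Across arrays the siNTE and control signals overlapped at 24 h, though siNTE was the lower within each array, and they were apart at 96 h.

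At 96 h the log2 ratio of Wnt3 was −0.64 (SE 0.06, n = 2 arrays, limma adjusted p = 5.54e-10), or 64.3% of the control level. Replicate 1 gave −0.62 and replicate 2 −0.66. The 24 h ratio was −0.09 (SE 0.06, limma adjusted p = 0.858). At these dim 24 h signals the authors' own log ratios were −0.34 and −0.42 on the arrays, and −0.38 on average. The 96 h call was lost without either 96 h array, at −0.66 (limma adjusted p = 0.15) without replicate 1 and −0.62 (limma adjusted p = 0.194) without replicate 2. The authors' own log ratio, which adds no offset, put it lower, at −1.06 or 2.09-fold lower (limma adjusted p = 0.17).

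The dimmer Wnt3 probe, which was not in the test, gave 23.7 and 29.4 in siNTE cells at 96 h, against 79.5 and 69.5 in control cells. Its log2 ratio at 96 h was −0.45, with −0.51 and −0.39 on the arrays, and the authors' own ratio for it was −1.50. Both probes were thus lower in siNTE cells on both 96 h arrays. At 24 h the dimmer probe was not well above background in any of the 4 channels.

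Tbxt, the T-box factor that defines the streak and its early mesoderm, was dim. The medians of its 10 spots were 16.7 and 16.6 in siNTE cells at 96 h, against 28.9 and 25.6 in control cells at 96 h. In siNTE cells at 96 h 8 and 7 of the 10 spots were well above background, against all 10 on both arrays in control cells. The single spots ran from 8.19 to 23.7 and from 5.14 to 22.3 in siNTE cells, against 18.6 to 34.5 and 20.7 to 31.6 in control cells. The spot ranges overlapped at their edges, and both siNTE medians were below both control medians.

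At 24 h the Tbxt medians were 11.6 and 8.92 in siNTE cells, against 10.8 and 10.9 in control cells, and the groups overlapped. Of the 10 spots, 8 and 0 were well above background in siNTE cells at 24 h, against 1 and 6 in control cells. The higher number fell in the Cy3 channel in both groups. Spots of 1 array share a hybridisation and are not replicates of a condition.

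The log2 ratio of Tbxt at 96 h was −0.14 (SE 0.06, n = 2 arrays, limma adjusted p = 0.157) and did not pass. Replicate 1 gave −0.16 and replicate 2 −0.11. With an offset of 16 it was −0.26, and the authors' own log ratio was −0.77 (1.71-fold lower) on average, with −0.77 and −0.78 on the arrays (limma adjusted p = 0.214). The size thus depended on the processing, and the authors' ratio, which also differs in normalization, lay furthest from 0. Tbxt did not pass under any of these 3 settings.

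**Figure D3:**
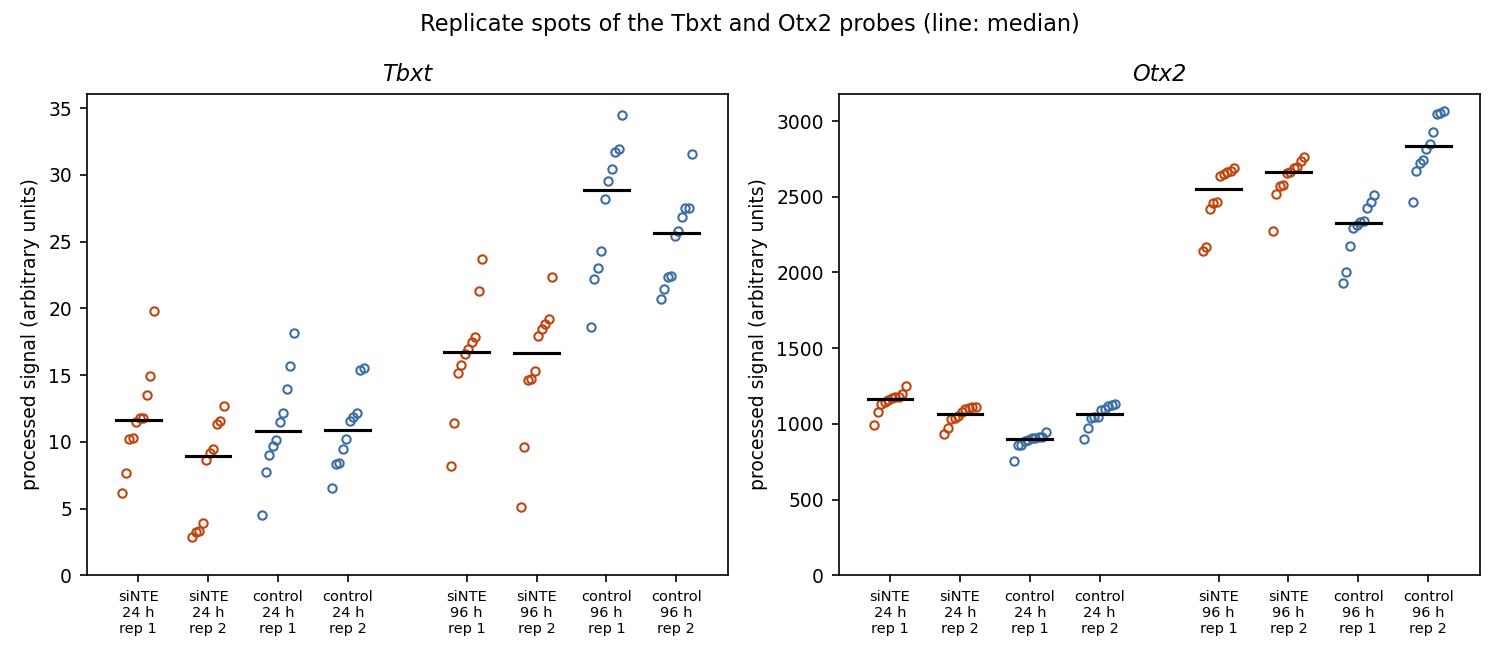
Processed signal (arbitrary units) of the 10 spots of the Tbxt probe (left) and the Otx2 probe (right) in each channel; circles are spots, lines medians. The Tbxt medians at 96 h are 16.7 and 16.6 in siNTE cells and 28.9 and 25.6 in control cells, whereas the Otx2 medians of the groups overlap at each time.

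Eomes is a T-box factor that acts before Mesp1 in the streak and is also found in trophoblast and visceral endoderm. At 96 h its signal was 147 and 163 in siNTE cells, against 148 and 163 in control cells. At 24 h it was 108 and 94.7 in siNTE cells, against 85.9 and 73.9 in control cells. The siNTE signals were thus both above the control signals at 24 h and matched them at 96 h. The log2 ratio was 0.00 at 96 h (SE 0.06, limma adjusted p = 0.983) and 0.16 at 24 h (SE 0.06, limma adjusted p = 0.445), where replicate 1 gave 0.13 and replicate 2 0.18.

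Mesp1, a bHLH factor of the earliest cardiovascular mesoderm, was near background. Its brighter probe gave 30.1 and 27.1 in siNTE cells at 96 h, against 20.6 and 14.6 in control cells, of which the lowest was not well above background. Its 24 h signals were 19.5 and 15.4 in siNTE cells, against 17.6 and 16.6 in control cells. The siNTE signals were above the control signals at 96 h and enclosed them at 24 h.

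The log2 ratio of Mesp1 at 96 h was 0.17 (SE 0.06, n = 2 arrays, limma adjusted p = 0.0822). Replicate 1 gave 0.16 and replicate 2 0.18, and the authors' own ratio was 0.72. At 24 h it was 0.00 (SE 0.06), with 0.15 and −0.15 on the arrays. Its other probe was not well above background in any of the 8 channels, at 1.98 to 9.30. Mixl1, a homeobox factor of the streak and early endoderm, had 1 probe, which gave 1.90 to 4.15 and was not well above background in any channel.

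The next comparison asked whether the silencing effect differed between the times. Of the 7 genes 3 passed the test of the difference between the times (7.08% of all genes did, and 4.17% with a lower ratio at 96 h). All 3 had a lower log2 ratio at 96 h than at 24 h. They were Fgf5 (difference −0.73, SE 0.10, limma adjusted p = 7.18e-07), Pou3f1 (−0.55, SE 0.09, limma adjusted p = 3.32e-05) and Wnt3 (−0.55, SE 0.09, limma adjusted p = 3.18e-05). For Wnt3 the 24 h signals lay near background, where the offset pulls the ratio toward 0. Without the dye term the same differences had limma adjusted p-values of 0.433, 0.268 and 0.268, and none of the 3 passed, nor did they with the authors' ratios (0.283, 0.273 and 0.273), and Pou3f1 also missed with an offset of 16 (0.055). Leaving out any 1 of the 4 arrays, which leaves the lone array of a time to be judged by the spread at the other, also ended all 3 calls, with differences from −0.995 to −0.47 for Fgf5, −0.58 to −0.52 for Pou3f1 and −0.57 to −0.52 for Wnt3. The differences of the other 4 genes lay between −0.18 for Otx2 and 0.17 for Mesp1, with limma adjusted p-values of 0.253 to 0.596.

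The same genes were then followed over time within each kind of cell. No array holds RNA of both times, so single channels were compared. In siNTE cells 3 of the 7 rose (Fgf5, Otx2 and Wnt3), where 53.5% of all genes changed and 27.1% rose. In control cells 5 of the 7 rose (the same 3, Pou3f1 and Eomes), where 52.7% of all genes changed and 27.2% rose. No member fell in either. Most genes changed over this time, so these counts are to be read against a high background. The median log2 change of the 7 genes was 0.17 in siNTE cells and 0.71 in control cells, against −0.01 and 0.00 over all genes.

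Fgf5 rose most among the members. At 96 h over 24 h its log2 change was 2.05 in siNTE cells (SE 0.10, limma adjusted p = 4.61e-09), a 4.15-fold rise, against 2.79 in control cells (SE 0.10, limma adjusted p = 2.74e-10), a 6.91-fold rise. The order of its levels was control cells at 96 h, then siNTE cells at 96 h, then both kinds at 24 h, which overlapped.

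Otx2 rose 1.86-fold in siNTE cells (log2 change 0.89, SE 0.09, limma adjusted p = 3.05e-06), against 2.11-fold in control cells (1.08, SE 0.09, limma adjusted p = 5.64e-07). Its levels formed 2 tiers by time, with siNTE and control cells overlapping within each. Wnt3 rose 1.58-fold in siNTE cells (0.66, SE 0.08, limma adjusted p = 9.9e-06), against 2.31-fold in control cells (1.21, SE 0.08, limma adjusted p = 3.73e-08). The dimmer Wnt3 probe was well above background at 96 h in both kinds of cell and in neither at 24 h. A nominal bound on its rise was 1.12-fold in siNTE cells, against 1.53-fold in control cells. Bounds were computed only for groups with this pattern, so their direction largely follows from that choice. For these bounds the mean of the 96 h channels was set against a 24 h level. In each 24 h channel this was the lowest level well above background, or the probe's own level where that was higher. They are not strict limits, since a probe not well above background can still read above that lowest level. Wnt3 levels were in the same order as those of Fgf5.

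Pou3f1 had a log2 change of 0.17 in siNTE cells (SE 0.08, limma adjusted p = 0.102), which did not pass, against a rise of 0.71 or 1.64-fold in control cells (SE 0.08, limma adjusted p = 7.84e-06). Its level was highest in control cells at 96 h, then in siNTE cells at 96 h, and lowest at 24 h, with the siNTE levels of both times not shown to differ. The difference between these 2 changes over time is, by construction, the difference of the silencing effects given above (−0.55). For Fgf5 and Wnt3 it is −0.73 and −0.55 in the same way.

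Eomes had a log2 change of 0.10 in siNTE cells (SE 0.07, limma adjusted p = 0.271), against a rise of 0.26 in control cells (SE 0.07, limma adjusted p = 0.0106). The control call was lost without 96 h replicate 1 (0.27, limma adjusted p = 0.0718) and without 96 h replicate 2 (0.24, limma adjusted p = 0.0969). The 96 h signals were above all 24 h signals in both kinds of cell.

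Tbxt changed by 0.02 in siNTE cells (SE 0.08, limma adjusted p = 0.821) and 0.13 in control cells (SE 0.08, limma adjusted p = 0.185), neither past the threshold. From the authors' processed signals the log2 change in control cells was 0.79 and passed (limma adjusted p = 0.0273). In both kinds of cell the 96 h medians were above the 24 h medians. Mesp1 changed by 0.07 in siNTE cells (limma adjusted p = 0.512) and −0.10 in control cells (limma adjusted p = 0.382).

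**Figure D4:**
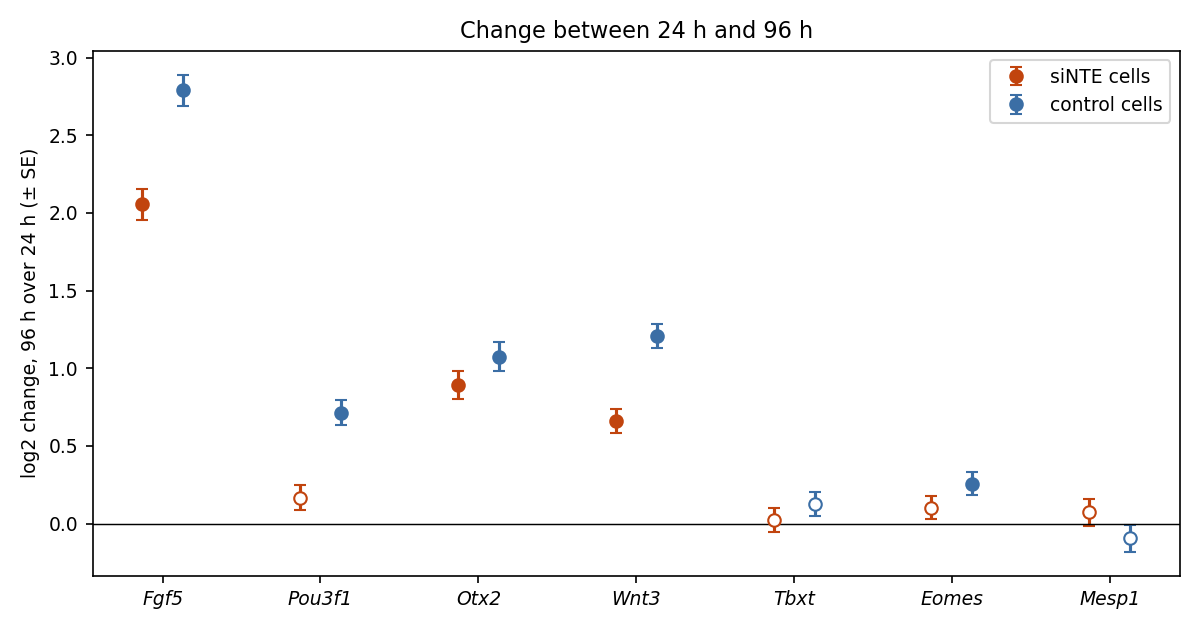
Log2 change at 96 h over 24 h, ± SE, of the 7 genes tested, in siNTE cells (orange, left of each pair) and control cells (blue); filled symbols passed an adjusted p of 0.05. After the offset of 50, which shrinks the changes of dim genes, Fgf5 has the largest changes, 2.05 in siNTE cells and 2.79 in control cells. Tbxt and Mesp1 lie near 0.

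The slide is a possible batch: 96 h replicate 2 was alone on a slide of its own, and the other 3 arrays shared another. On the shared slide the 96 h log2 ratios were −0.95 for Fgf5, −0.66 for Pou3f1 and −0.62 for Wnt3. On the slide of 96 h replicate 2 they were −0.42, −0.60 and −0.66. A slide block, fitted with no dye term, takes up 96 h replicate 2 and so gives the shared slide's values, with which Fgf5 passed at 96 h (limma adjusted p = 0.0442), and Pou3f1 and Wnt3 did not (limma adjusted p = 0.147 and 0.194). Within the shared slide the members called over time were the same 3 in siNTE cells and the same in control cells but for Eomes.

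Other genes of the same stages were read from 2 lists. Of 20 formative and epiblast genes other than the members, 18 were tested. Of all genes 6.86% were lower in siNTE cells at 96 h and 6.68% higher, and 0.395% were called at 24 h. At 96 h 5 of the 18 were lower and 1 was higher, with a median log2 ratio of −0.02 against 0.00 over all genes. The lower ones were led by Pim2, a serine/threonine kinase (−1.03, limma adjusted p = 2.17e-15), Sall2, a zinc finger factor (−0.65, limma adjusted p = 5.42e-10), Dnmt3b, a de novo DNA methyltransferase (−0.64, limma adjusted p = 4.89e-10), and Sox11 (−0.45, limma adjusted p = 1.34e-06). At 24 h 1 of the 18 was called, Fgf15, which was higher (0.27, limma adjusted p = 0.0312) and was not called under 10 of the 11 other settings tried, where its limma adjusted p was 0.196 to 1.

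Of 26 genes of the streak, nascent mesoderm and streak-derived endoderm, 19 were tested, and the other 7 did not pass the filter. At 96 h 3 of the 19 were lower in siNTE cells and 2 higher, beside 6.86% and 6.68% of all genes. The lower ones were led by the ligands Wnt8a (−0.66, limma adjusted p = 4.57e-10) and Fgf8 (−0.32, limma adjusted p = 0.000253). The 2 that were higher were Lefty2, a Nodal antagonist (0.39, limma adjusted p = 1.36e-05), and Cyp26a1, which breaks down retinoic acid (0.21, limma adjusted p = 0.0207). The median of the list was −0.01. None of the 19 was called at 24 h, where 0.395% of all genes were (12 of the 19 log2 ratios were above 0). Part of this list lay near background. At 24 h 13 of the 19 were well above background in both channels of siNTE cells, and 13 in both of control cells. At 96 h these numbers were 16 in siNTE cells and 14 in control cells. The background offset pulls the ratios of such dim genes toward 0, so a ratio near 0 does not show that they were unchanged. Without the dye term Pim2, Sall2 and Wnt8a still passed at 96 h, and Dnmt3b, Sox11, Fgf8, Lefty2 and Cyp26a1 did not (limma adjusted p = 0.0772 to 0.416).

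Of the epiblast list more genes fell than rose over time. In siNTE cells 2 of the 18 rose and 11 fell, beside 27.1% of all genes that rose and 26.4% that fell. In control cells 4 rose and 11 fell, beside 27.2% and 25.5% of all genes. Etv4 (−1.93 in siNTE cells and −2.02 in control cells) and Lef1 (−1.82 and −1.76 in the same order) were among the largest falls. Sall2 rose by 1.57 in siNTE cells and by 2.35 in control cells, and Pim2 rose by 0.96 in siNTE cells and by 1.89 in control cells. Of the 19 streak genes tested 4 rose and 6 fell in siNTE cells, and 5 rose and 6 fell in control cells, which is near the share of all genes called (53.5% in siNTE cells and 52.7% in control cells). Hand1 rose by 0.36 in siNTE cells and by 0.62 in control cells. Follistatin (Fst), which is on both lists, fell by 1.74 and 1.47 in that order.

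**Figure D5:**
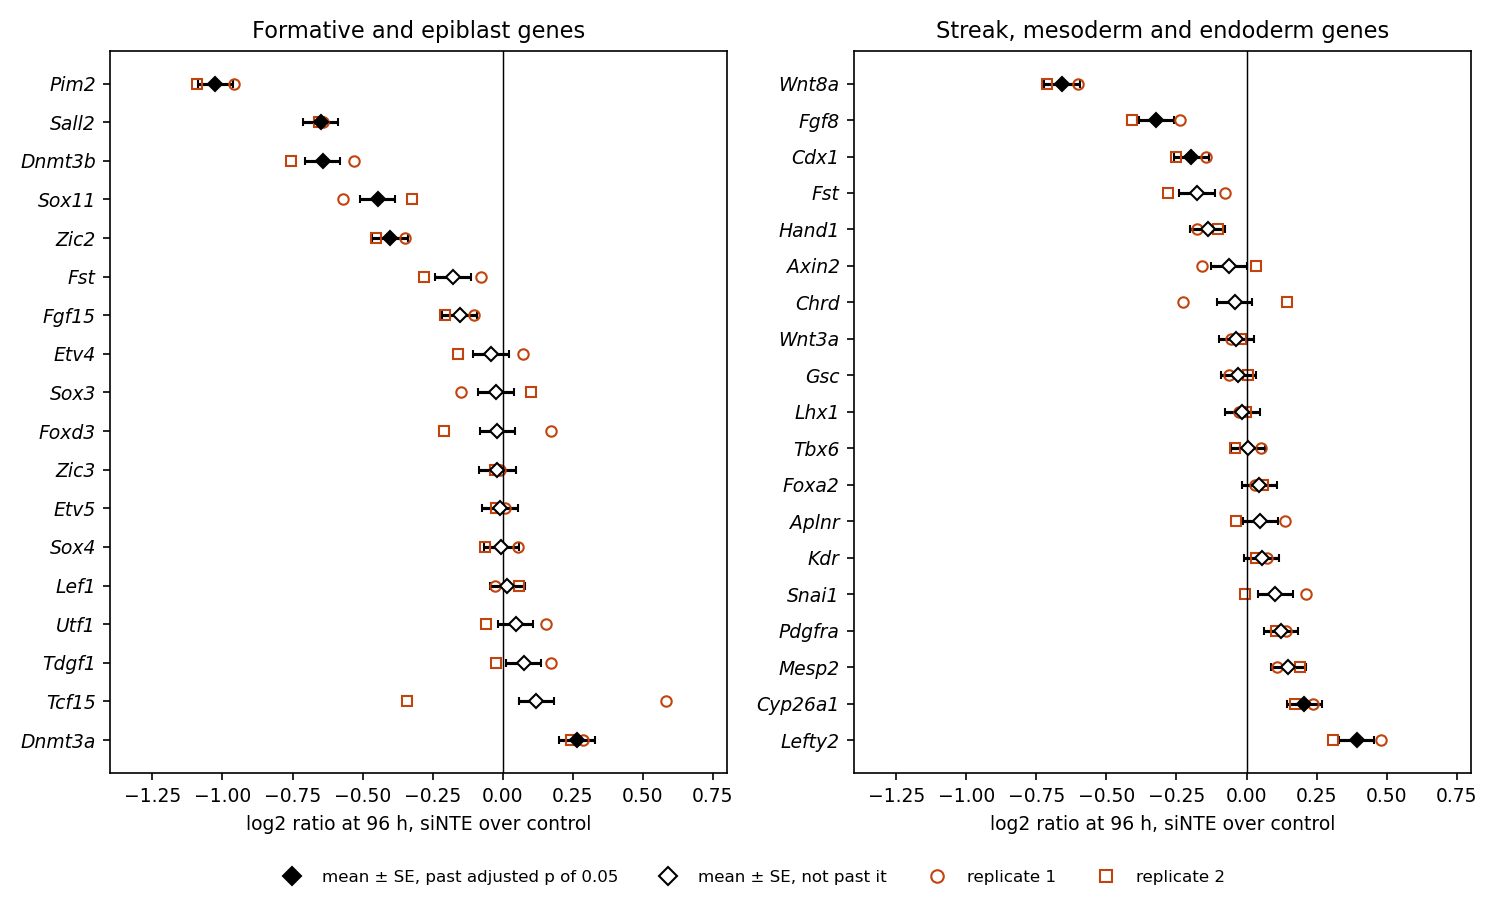
Log2 ratio of siNTE over control at 96 h for the tested genes of the epiblast list (left, 18 genes) and the streak list (right, 19 genes); diamonds are the fitted mean ± SE, filled where the adjusted p was under 0.05, circles replicate 1 and squares replicate 2. Pim2 and Wnt8a have the lowest ratios of their lists, −1.03 and −0.66, and most genes of both lists lie near 0. The background offset shrinks the ratios of dim genes, and part of the streak list was near background.

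Markers of other cell types were read beside these results. Of the 10 naive pluripotency markers 7 were higher in siNTE cells at 96 h and none lower, with a median log2 ratio of 0.29. Nr0b1 is among those called higher, although its arrays disagreed (−0.01 and 0.62). The summed signal of the 10 was 162877 to 168065 in siNTE cells, against 133896 to 140275 in control cells. Of all genes 6.68% were higher at 96 h and 6.86% lower. The count of 1454 higher genes fell to 15 without the dye term, to 1 with the slide as a block and to 0 with the authors' ratios. In the same order the 1493 lower genes became 91, 31 and 0. For the authors' ratios limma gave 3847 genes an unadjusted p under 0.05, counted over both directions. Of 11 markers of primitive and visceral endoderm, where Otx2 and Eomes are also expressed, 2 were higher and none lower, and their sum was 1321 to 1351 in siNTE cells, against 994 to 1057 in control cells. Of 9 trophoblast markers 2 were higher (Plet1, 0.53, and Esx1, 0.35) and 2 lower (Krt8, −0.78, and Krt18, −0.22), with a median log2 ratio of 0.05. Their sums were 59268 to 61907 in siNTE cells, against 70982 to 72086 in control cells, and a sum is weighted toward the brightest genes. Of the trophoblast markers, Cdx2 was not well above background in either kind of cell at 96 h.

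Of 8 neural markers 1 was lower at 96 h, with sums of 2973 to 3177 in siNTE cells, against 3579 to 3605 in control cells, and Pax3 was not well above background in siNTE cells. Of 6 feeder fibroblast markers 4 were lower and 1 higher, with sums of 3789 to 3839 in siNTE cells, against 4308 to 4666 in control cells. Beside these counts, 6.86% of all genes were lower at 96 h and 6.68% higher. At 24 h none of the markers of these 5 lists was called. Of 6 pan-pluripotency markers, 1 was called at 24 h, Pou5f1, the Oct4 factor, which was higher (0.68, limma adjusted p = 9.1e-09), although its log2 ratio was 1.58 on one array and −0.21 on the other. At 96 h Sox2 (0.36) and Dppa5a (0.21) were called higher, and Pou5f1 (−1.05) and Lin28a (−0.35) lower. The arrays of 96 h disagreed for Pou5f1 (0.01 and −2.11) and for Dppa5a (−0.84 and 1.26). The summed signal of the 6 was 389364 to 500383 in siNTE cells at 96 h, against 309295 to 516559 in control cells, so the ranges overlapped. The part of any of these cell types in the results for Fgf5, Pou3f1 and Wnt3 was not tested.

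For each tested member the 2 genes with the most alike level over the 8 channels were looked up, as a description with no test, since the 8 points share 4 arrays and 2 times. Fgf5 was matched by Emb (Pearson r = 0.9996) and Sh3bgrl (r = 0.999), Wnt3 by Pim2 (r = 0.999) and Pdzrn3 (r = 0.997), and Otx2 by Mospd1 (r = 0.999) and Rps15a (r = 0.997). Pou3f1 was matched by the keratin Krt8 and the growth factor Fgf2 (r = 0.988 each). Levels of the other members spanned less (log2 range 0.21 to 0.27, against 0.87 to 2.84 for those above). Their matches were Plcl2 and Asb13 for Tbxt (r = 0.982 and 0.974), Hcrtr1 and Zfp866 for Eomes (r = 0.987 and 0.967) and Tbx3 and Pcx for Mesp1 (r = 0.950 and 0.934). The genes compared ran from 610 for Fgf5 to 13004 for Tbxt.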

How the data were processed

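RNA of siNTE and control D3 cells was hybridised to 4 two-colour Agilent whole mouse genome arrays, 2 per time, from 200 ng of total RNA per the labels. The authors extracted the scans with Agilent Feature Extraction (10.7 per the submitters' processing notes, 10.7.1.1 per the file headers). The notes name limma too. Spot, background and processed signals were deposited as intensity in arbitrary units, and each spot's log10 ratio as Cy5 over Cy3, with a p-value for that ratio that the authors' software derived from 1 array and that was not used. The authors' series table holds the same log10 ratios as siNTE over control, within 4.967e-06.

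With R 4.3.3 and limma 3.58.1, median spot intensity was corrected by normexp (offset 50) and log ratios by loess, with control spots at weight 0. Flagged outlier spots (96 to 118 per array, and 1 non-uniform spot in all) were left out, and spots of a probe were averaged. A probe passed when more than 0.5 of its spots were well above background on 2 arrays of 1 RNA group or more, as 28080 of 41174 probes did. The probe with the highest mean intensity stood for its gene. RefSeq accessions named 24375 probes, and 21752 genes or transcripts were tested.

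Log2 ratios of all 4 arrays were fitted with a mean per time and a dye orientation term, which coincides with the replicate number. That leaves 1 residual degree of freedom, with 36.1 prior degrees of freedom shared over genes. Times were compared over Aquantile-normalized channels with RNA group and dye, with an intraspot correlation of 0.511 from pooled residual variances. Limma's own estimate (0.896) was an alternative added after seeing the data. Tests were two-sided with a Benjamini-Hochberg adjusted p under 0.05 over all genes. The scripts were tested on simulated data.

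The members and lists were chosen with earlier results of these data known. By rule the text names all members, up to 4 called genes of each list with the largest change per comparison (not all of them are printed), and the 2 genes most alike per member whose range was at least 0.5 times the member's. The scanner files' grid and GRCm38.p6 differ in build, so probes have no coordinates here. Alternatives were the offset, the authors' ratios or signals, other normalization, no filter, the mean of a gene's probes, the dye term or replicate block, the slide, and leaving out each array.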

Additional observations from a re-analysis of the deposited data

Results flagged for a closer look

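The silencing effect (log2 ratio of siNTE over control) differed between 96 h and 24 h in limma for 3 of the 7 regulators tested. It also differed for 8 genes of the 2 lists, 6 of 18 tested in the epiblast list and 2 of 19 in the streak list. Of all genes 7.08% were called, and 4.17% with a lower ratio at 96 h. The differences, 96 h minus 24 h, were −0.73 for Fgf5, −0.55 for Pou3f1 and −0.55 for Wnt3. In the epiblast list they were −0.93 for Pim2, −0.78 for Sall2, −0.62 for Dnmt3b, −0.59 for Zic2, −0.51 for Sox11 and −0.43 for Fgf15, and in the streak list −0.65 for Wnt8a and −0.28 for Fgf8. All were lower at 96 h. For Fgf15 the ratio was 0.27 at 24 h and −0.15 at 96 h, and for the other 10 the 96 h ratio was the larger in size. The limma adjusted p-values ran from 8.16e-10 for Pim2 to 0.0413 for Fgf8, and none of the 11 genes passed without the dye term.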

How the results depend on the processing

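At 24 h the main setting called 86 genes (56 higher in siNTE cells and 30 lower). This became 0 with offset 16, with the deposited log ratios, with the replicate block (the dye term) left out and with the slide as a block (1617, 1572, 216 and 190 genes had an unadjusted p under 0.05 in limma), 42 with median centring (20 higher and 22 lower), 9 with the mean of a gene's probes, and 0 without any 1 array (190 to 292 unadjusted). At 96 h 2947 genes (1454 higher and 1493 lower) became 1054 with offset 16, 0 with the authors' ratios (3847 unadjusted), 1798 with median centring (1126 higher and 672 lower), 106 without the replicate block, 32 with the slide as a block and 29 to 113 without 1 array. For the difference between times 1541 genes (633 higher and 908 lower) became 271 (52 higher and 219 lower), 0 (2936 unadjusted), 737, 0 (1297) and 0 (1080) under these 5 settings, 981 with the mean of a gene's probes and 0 without any 1 array (844 to 1080 unadjusted). Of the 3 members called at 96 h, 0 passed with the authors' ratios, 1 with the slide as a block (Fgf5), 2 without the replicate block (Pou3f1 and Wnt3) and 0 to 2 without 1 array. For the difference between times 2 members passed with offset 16 (Fgf5 and Wnt3), and 0 without the replicate block, with the slide as a block, with the authors' ratios or without any 1 array. Fgf5, Pou3f1 and Wnt3 kept a negative 96 h ratio under all of these settings. The replicate number as a block on the time changes gave 12149 genes in siNTE cells and 11997 in control cells, against 11630 and 11465, and the same members. Limma's own intraspot correlation, added after seeing the data, gave 8106 and 7919 and the same members. The half-differences of the replicates correlated between the times (r = 0.70), but number and dye coincide and only 2 pairs exist. Whether the numbers mark pairs thus cannot be told. The dye term in the main fit of the ratios also blocks on the number, and the main fit of the time changes had no such block. Ratios that changed sign were never called: Mesp1 at 24 h was −0.0093 with median centring, and without 1 array it ran from −0.15 to 0.15. Otx2 at 96 h was 0.0080 with the authors' ratios, 0.042 with median centring and 0.11 with the slide as a block, and −0.13 to 0.11 without 1 array. Eomes at 96 h was −0.0062 with the authors' ratios and −0.0064 with the slide as a block, and −0.0064 to 0.013 without 1 array. Tbxt at 24 h ran from −0.075 to 0.0059 without 1 array, and its change over time in siNTE cells from −0.018 to 0.065. That of Mesp1 ran from −0.0097 to 0.15. The cause of these shifts was not tested. Signal over background limits Tbxt, Mesp1, Mixl1 and, at 24 h, Wnt3.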
